A study of Mus musculus with 3 samples.

Results

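Granzyme-rich uterine natural killer (NK) cells were described in 1 single-cell RNA library of whole mouse uterus taken at pregnancy day 7.5. Of 2775 barcodes (each the label of 1 droplet, taken here as 1 cell) in that library, 1825 passed a quality filter of 500 or more detected genes and no more than 20% mitochondrial UMIs. A UMI, or unique molecular identifier, counts 1 captured transcript. Of these, 320 held at least 3 UMIs over Ncr1, Klrb1c, Nkg7, Prf1, Il2rb and Klrd1, 302 of them also held at most 1 UMI of Cd3e, Cd3d and Cd3g, and all 302 held fewer than 3 UMIs of C1qa, C1qb and C1qc. In 104 of the 302, Gzmd, Gzme, Gzmf and Gzmg together reached at least 10 of every 10000 UMIs, and these 104, chosen by those measured levels, are the granzyme-rich cells. They made up 5.70% (95% interval 4.68 to 6.86) of the 1825 barcodes and 34.4% (29.1 to 40.1) of the 302. They held 15.1% of the UMIs of all quality-filtered barcodes.

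The female mice were mated at the age of 8 weeks or later and the whole uterus was dissociated with trypsin, per the labels. The labels give no genotype for the sample analysed. A Prl8a2icre/+ Sun1-GFPLsL/+ sample and a Sun1-GFPLsL/+ sample of the same series are not analysed here. With 1 library there is no replicate check, no test was made, and all intervals are exact 95% intervals for counting error alone. They leave out the spread between animals.

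Uterine NK cells are innate lymphocytes that gather in the decidua, the transformed lining around the implanted embryo, during early pregnancy. They are known for dense cytoplasmic granules and for their part in remodelling the maternal arteries. Granzymes are serine proteases stored in such granules, and perforin, the product of Prf1, forms the pores through which granzymes enter a target cell. In the mouse, Gzma and Gzmb are shared with cytotoxic T cells and NK cells of other organs, while Gzmd, Gzme, Gzmf and Gzmg belong to a rodent expansion of the granzyme B gene cluster that is known from the pregnant uterus and from strongly stimulated killer lymphocytes.

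The granzyme-rich cells were compared with 3 sets of barcodes. The first was all 1721 other quality-filtered barcodes. The most similar set was the 198 barcodes that met every other condition but had fewer than 10 Gzmd to Gzmg UMIs per 10000, called granzyme-poor NK and innate lymphoid cells here. The third was 36 Cd3-positive lymphocytes with at least 2 Cd3 UMIs. Levels are UMIs summed over the barcodes of a set and scaled to a total of 1000000 (CPM) unless given per 10000 UMIs of a single barcode. A gene was compared where both sides together held at least 50 UMIs, and it counted as higher or lower where the ratio of the 2 CPM values was at least 2-fold with an interval that excludes 1. Genes that chose or ordered the cells were not left out of the counts of higher and lower genes.

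The granzyme-rich cells held more UMIs per barcode than the other sets. Their UMIs ran from 874 to 72477 with a median of 17272.5, against medians of 5138.5 in granzyme-poor cells, 3450 in Cd3-positive lymphocytes and 4303 in all other barcodes. Their median of 4096 detected genes stood against 2010.5 in granzyme-poor cells, and the median mitochondrial share was 3.57% against 3.15%. For the main results, values are therefore also given for barcodes thinned to 2000 UMIs, which kept 97 granzyme-rich and 170 granzyme-poor cells, or against the 50 granzyme-poor cells with at least 8000 UMIs. Of the granzyme-rich cells 73 reached that depth, but all 104 were kept in that comparison, so its depths are not matched.

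The label was checked against the 8 markers given for it and against markers of other cells. Spp1, the secreted phosphoprotein osteopontin, was found in 104 of 104 granzyme-rich cells, Prf1 in 98, Nkg7, a granule membrane protein, in 96, Gzmd in 95, Gzmf in 86, Ncr1 (the activating receptor NKp46) in 65, Gzmg in 63 and Klrb1c (NK1.1) in 63. All 8 markers were thus detected, and all but Spp1 belong to the rule that chose the cells. Of the T cell markers, Cd3e, Cd3g, Cd4, Cd8a, Cd8b1 and Tcrg-C1 were at 0 UMIs and Cd3d had 3, while Trbc1, a T cell receptor constant segment, held 942 UMIs in 96 cells. The rule itself limited Cd3e, Cd3d and Cd3g, so their low counts are no check of the label. Summed over the 11 genes of the T cell list, the level was 520 CPM, higher than the 137 CPM of all other barcodes. Of 7 compared genes of that list, 2 were higher and 3 lower. The markers of stroma (8 of 8), decidual stroma (8 of 8), epithelium (8 of 8) and macrophages (10 of 10) were lower than in all other barcodes. Summed over each list they stood at 30.1, 29.2, 81.4 and 11.7 CPM, against 2135, 900, 2675 and 493 CPM. The rule also limited C1qa, C1qb and C1qc of the macrophage list, although that condition removed no barcode. Cd79a, Cd79b and Igkc of B cells were at 0, although Ighm had 167 UMIs in 54 cells, and Pecam1, an adhesion protein of endothelium and leukocytes, stood at 200 CPM in 86 cells while the endothelial gene Cldn5 was at 0. Mcpt8, a basophil protease, had 46 UMIs in 24 cells, and Tpsb2, Tpsab1 and Ms4a2 of mast cells and basophils were at 0. The caller Scrublet marked 3 of 1825 barcodes (0.164%) and none of the 104, a rate too low to be used, so doublets were not removed. Over the stroma, epithelium, endothelium and B cell lists together, 61 of the 104 cells held at least 5 UMIs (highest 43). Pecam1 made up 200 of the 214 CPM of the endothelium list, and Ighm 167 of the 168 UMIs of the B cell list. Since Pecam1 is also a leukocyte gene, being among the 61 does not by itself mark a doublet. For named genes, values without those 61 are given where they change a call against granzyme-poor cells. The limit of 5 UMIs was not scaled to depth, so deeper cells reach it more easily. Genes compared with granzyme-poor cells fell from 6994 to 5268 without the 61. The part of depth in calls lost without the 61 was not tested. Without those 61, Scin, Mt2, Havcr2, Il2ra and Fcgr3 had too few UMIs to be compared, so their calls were not checked in this way. The part of doublets in the results was not tested.

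The 4 granzyme genes of the rule lie in the same gene cluster. On GRCm38, Gzme (chromosome 14, 56117626 to 56120625), Gzmd (56129556 to 56132608), Gzmg (56156582 to 56159579), Gzmn (56165797 to 56174599), Gzmf (56205263 to 56211417), Gzmc (56231441 to 56234656) and Gzmb (56258838 to 56262260) follow each other on the minus strand within 144635 bases. Gzma lies apart, on chromosome 13 (113093825 to 113100981). The transcripts of Gzmd, Gzme, Gzmf and Gzmg are 82.9 to 90.0% identical in pairs. Of the 50-base windows in the last 500 bases of the transcript, the end that a 3' library reads, 20.4% in Gzmd, 18.2% in Gzme, 14.4% in Gzmg and 7.10% in Gzmf recur without a mismatch in another granzyme. Counts of these 4 genes may therefore be split among them, and their sum is safer than their order. Gzma, Gzmb and Gzmc shared 0 such windows.

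Promoters of the cluster are shown because most of its genes were abundant together in the same cells. They cover 250 bases before the start site, from RefSeq on GRCm38.p6, minus strand, in lower case with motif matches in capitals. Searched on both strands were RUNX (TGTGGT), ETS (CAGGAAG), AP-1 (TGANTCA), STAT (TTCNNNGAA) and T-box (TCACACC). No match of 1 motif overlapped another in those shown. The windows are chr14:56132594-56132843 (Gzmd), chr14:56211408-56211657 (Gzmf), chr14:56234658-56234907 (Gzmc) and chr14:56262335-56262584 (Gzmb).
Gzmd: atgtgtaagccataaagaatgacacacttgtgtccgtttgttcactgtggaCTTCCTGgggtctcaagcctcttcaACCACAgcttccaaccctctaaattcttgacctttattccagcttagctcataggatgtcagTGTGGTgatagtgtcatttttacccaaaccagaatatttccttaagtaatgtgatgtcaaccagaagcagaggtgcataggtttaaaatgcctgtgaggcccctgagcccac
Gzmf: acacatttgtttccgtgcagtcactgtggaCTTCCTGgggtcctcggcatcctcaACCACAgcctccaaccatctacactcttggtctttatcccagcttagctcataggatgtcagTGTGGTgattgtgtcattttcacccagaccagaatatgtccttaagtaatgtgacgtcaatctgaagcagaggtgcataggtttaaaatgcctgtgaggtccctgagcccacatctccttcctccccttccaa
Gzmc: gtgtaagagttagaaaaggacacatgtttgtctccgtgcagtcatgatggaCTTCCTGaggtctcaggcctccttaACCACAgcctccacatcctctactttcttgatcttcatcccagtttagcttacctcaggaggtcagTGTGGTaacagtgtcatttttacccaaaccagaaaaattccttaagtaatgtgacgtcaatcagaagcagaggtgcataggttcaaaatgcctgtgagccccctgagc
Gzmb: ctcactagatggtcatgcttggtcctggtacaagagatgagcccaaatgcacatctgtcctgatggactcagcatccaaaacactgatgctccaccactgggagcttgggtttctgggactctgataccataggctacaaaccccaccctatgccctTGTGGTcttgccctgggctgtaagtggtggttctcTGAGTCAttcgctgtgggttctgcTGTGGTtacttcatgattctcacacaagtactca

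Gzmc, Gzmd, Gzme, Gzmf and Gzmg each held 2 RUNX matches and 1 ETS match in this window. Their promoters were 70.2 to 94.8% identical in pairs, with Gzmd and Gzme the closest. The Gzmb promoter was 44.1 to 47.2% identical to these 5, and held 2 RUNX matches and 1 AP-1 match (TGAGTCA). No STAT or T-box match was in any of the 6 windows. Of 32851 promoters of this length, 14.05% held RUNX, 10.8% ETS, 7.02% STAT, 6.75% AP-1 and 3.33% T-box. These matches are letters in a window and no evidence of binding.

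Gzmd to Gzmg chose the cells, so their levels are a description. Per 10000 UMIs the 4 genes together ran from 10.3 to 488 in granzyme-rich cells, with a median of 59.4 and quartiles of 30.1 and 134. The 4 cells nearest to the threshold from inside had 10.3, 10.3, 10.5 and 10.5, and the 4 nearest from outside had 8.23, 8.61, 9.55 and 9.59. The values form a continuous range across the threshold. Of the 302 barcodes that met the other conditions, 134 were at 0, 27 lay above 0 and under 2, 17 from 2 to under 5, 20 from 5 to under 10, 15 from 10 to under 20, 32 from 20 to under 50, 18 from 50 to under 100, 20 from 100 to under 200 and 19 at 200 or more. A shallow barcode can reach the threshold with little evidence. The 4 genes had 1 UMI in the lowest granzyme-rich cell, a median of 82 and 2742 in the highest, and 11 cells had fewer than 10. The granzyme-rich cells held 95.7% of the 31460 Gzmd to Gzmg UMIs in quality-filtered barcodes. A further 27 barcodes reached 10 per 10000 but failed the other conditions, 26 of them with fewer than 3 NK gene UMIs, and their median depth was 1172 UMIs.

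**Figure D1:**
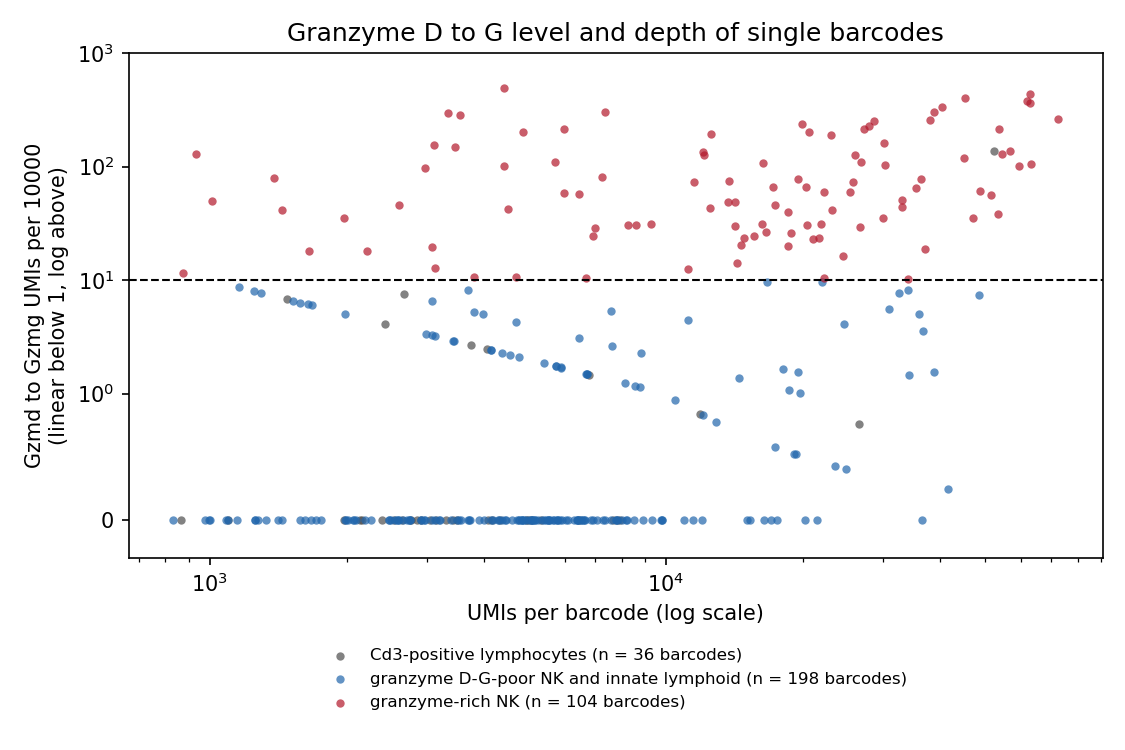
Each point is 1 barcode, with its UMIs on a log axis against Gzmd to Gzmg UMIs per 10000 (linear below 1, log above). The 104 granzyme-rich cells lie at or above the dashed threshold of 10 at all depths, most of the 198 granzyme-poor cells lie at 0, and 1 of the 36 Cd3-positive lymphocytes lies above the threshold.

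Gzmf was the most abundant of the 4, at 6507 CPM, followed by Gzmd at 4186, Gzme at 1798 and Gzmg at 1040 CPM. Among granzyme-poor cells the same genes stood at 63.2, 65.1, 38.7 and 7.74 CPM. Gzmf made up 48.1% of the 4 genes' UMIs in granzyme-rich cells, Gzmd 30.9%, Gzme 13.3% and Gzmg 7.68%. In single cells Gzmf ran from 0 through a median of 26.9 to 366 per 10000, and Gzmd from 0 through 21.9 to 135. Gzme ran from 0 through 9.57 to 81.2, and Gzmg from 0 through 1.79 to 57.9. The mix thus varied from cell to cell. 49 cells had all 4 genes, 34 had 3, 15 had 2 and 6 had 1. The 10 cells with the most held 54.9% of these UMIs, so the summed values lean on a minority of the cells.

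Granzymes that the rule did not use were also abundant. Gzmc stood at 4041 CPM, against 1248 in granzyme-poor cells and 180 in all other barcodes. In single granzyme-rich cells it ran from 1.499 through a median of 34.6 to 126 per 10000 and no cell lacked it, while 75 of 198 granzyme-poor cells had a UMI (median 0, highest 159). The groups overlapped in range, since the highest single value was in a granzyme-poor cell. The ratio was 3.24 (3.08 to 3.40) against granzyme-poor cells and 22.5 (21.4 to 23.5) against all others. Thinned to 2000 UMIs, Gzmc was found in 94 of 97 granzyme-rich cells (96.9%), in 58 of 170 granzyme-poor cells (34.1%) and in 2 of 305 epithelial-marker barcodes (0.656%). The last set should lack the gene, and its median depth before thinning was 9504 UMIs.

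Gzmb, the granzyme B that cleaves caspases, stood at 3643 CPM, against 1671 in granzyme-poor cells and 249 in all others. Its single-cell values ran from 0 through 29.8 to 121 per 10000 in the 104 cells (99 with a UMI) and from 0 through 1.25 to 155 in the 198 (103 with a UMI). The sums differed 2.18-fold (2.09 to 2.28). Gzma, a tryptase of the same granules, stood at 2681 CPM, against 1227 and 181. It ran from 0 through 15.05 to 142 per 10000 (82 cells with a UMI), against 0 through 0 to 189 (73 with a UMI), again with overlapping ranges. The 2 ratios were 1.48 for Gzmb and 1.58 for Gzma when the granzyme-poor cells were limited to those with at least 8000 UMIs, which ends both calls. The Gzma ratio was 1.91 without the 61 cells that held other-cell marker UMIs. With equally weighted barcodes the ratios were larger, at 3.51 for Gzmb and 5.61 for Gzmc. Against all other barcodes the ratios were 14.6 for Gzmb and 14.8 for Gzma.

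Gzmn, the remaining gene of the cluster, had 17 UMIs in 14 granzyme-rich cells and 0 in every other quality-filtered barcode. Of its 50-base windows 11.97% recur in another granzyme, and whether these few UMIs come from its abundant neighbours was not tested. Gzmk and Gzmm had 5 and 2 UMIs in granzyme-rich cells. The 10 granzyme genes together took 2.39% of all UMIs of granzyme-rich cells, against 0.433% in granzyme-poor cells and 0.0720% in all other barcodes. In single granzyme-rich cells that share ran from 0.242% through 1.71% to 6.03%. With mitochondrial, ribosomal protein and Gm-named genes left out, Gzmf ranked 4 among their transcripts, Spp1 7, Gzmd 8, Gzmc 9, Gzmb 11 and Gzma 17.

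Prf1 was part of the rule, as 1 of 6 NK genes of which 3 UMIs sufficed. It stood at 1289 CPM, against 392 in granzyme-poor cells and 61.0 in all others. Per 10000 it ran from 0 through 11.1 to 73.9 in granzyme-rich cells and from 0 through 2.35 to 26.3 in granzyme-poor cells. The other NK genes of the rule did not share this pattern. Ncr1 stood at 87.2 CPM against 101 in granzyme-poor cells, Nkg7 at 475 against 565, Il2rb, the shared receptor chain for interleukins 2 and 15, at 1209 against 1467, and Klrd1 (CD94) at 390 against 433. Klrb1c stood at 61.1 against 137 CPM.

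**Figure D2:**
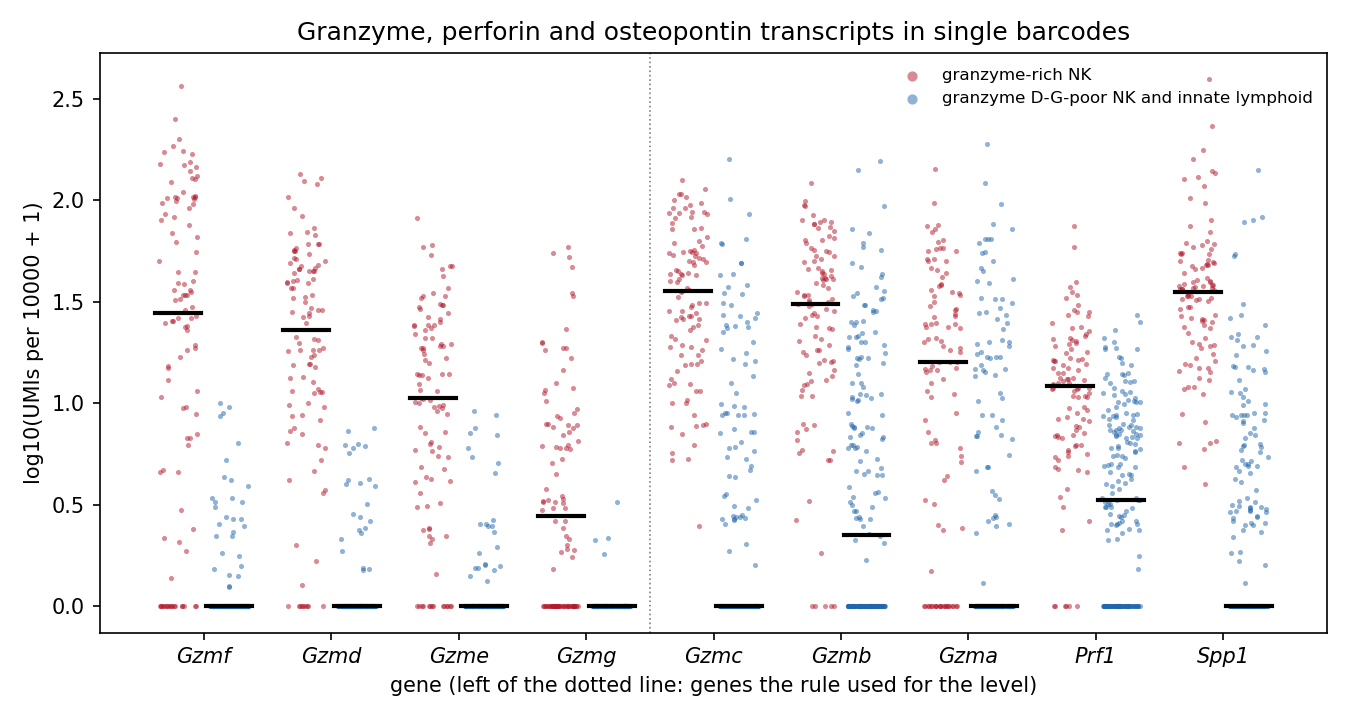
Points are single barcodes, 104 granzyme-rich and 198 granzyme-poor, on log10 of UMIs per 10000 plus 1, and black bars are medians. Left of the dotted line are the genes that set the level in the rule. Right of it, granzyme-rich medians are higher for Gzmc, Gzmb, Gzma, Prf1 and Spp1, with granzyme-poor cells reaching into the same range.

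Set against all 1721 other barcodes, 1109 of 12190 compared genes were higher (9.1%) and 4293 lower (35.2%). Over all genes the median log2 ratio was -0.37. All 3 compared granzymes outside the rule were higher. Among granule and killing genes, 10 of 23 were higher and 4 lower (median log2 0.37). They included Cst7, the inhibitor cystatin F (149 against 18.1 CPM, ratio 8.22), Rab27a, which docks granules at the membrane (83.2 against 15.1, ratio 5.49), and Unc13d, which primes them for release (57.5 against 11.5, ratio 4.99). The lysosomal membrane gene Lamp2 was lower (50.8 against 255 CPM, ratio 0.199). Activating receptors and adaptors were mostly higher (19 of 27, 2 lower, median log2 1.72). Tnfrsf9, the costimulatory receptor 4-1BB, stood at 797 against 64.9 CPM (ratio 12.3), and Cd247, a signalling chain, at 48.6 against 7.85 (ratio 6.18). The list of inhibitory receptors followed (10 of 16 higher, 4 lower, median log2 1.53), although it also holds the activating receptors Klra4 and Klra8. Klrg1 stood at 247 against 15.4 CPM (ratio 16.05, 13.6 to 19.0), Ctla4 at 329 against 30.1 (ratio 10.9) and Klra7, a Ly49 receptor for class I molecules, at 344 against 47.4 (ratio 7.26). The cell surface protein of lymphocytes Thy1 was 7.11-fold higher.

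Other lists were divided or mostly lower against all other barcodes. Of 29 transcription factors 9 were higher and 7 lower, with Eomes at 218 against 35.4 CPM (ratio 6.16) and Runx3, which acts in killer lymphocytes, at a ratio of 3.95. Of 23 glycolysis genes 11 were higher and 5 lower, with Ldha, which makes lactate, at a ratio of 3.18. Of 30 secreted factors 3 were higher and 21 lower, and of 12 chemokines 0 were higher and 10 lower. Immediate early and heat shock genes had 1 higher and 18 lower of 20, with Fos at 36.4 against 1113 CPM. The hormone receptor genes Esr1 (2.70 against 305 CPM), Pgr (2.70 against 110) and Prlr (1.35 against 200) were nearly undetected in granzyme-rich cells. Xist, expressed from the inactive X chromosome, stood at 921 against 2225 CPM (ratio 0.414), and at 1511 CPM in granzyme-poor cells.

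Among genes outside the lists, the largest ratios against all other barcodes were Tmsb15a, a thymosin that binds actin monomers (347 against 14.7 CPM, ratio 23.5, 19.997 to 27.8), Avil, an actin-binding protein (141 against 6.09, ratio 23.2), AA467197 (ratio 15.04), Zbtb32, a transcriptional repressor of lymphocytes (ratio 11.7), and Scin, which severs actin filaments (99.3 against 10.1, ratio 9.84). Some of these rest on few cells. Scin was found in 32 of the 104 cells, and 5 cells held 50.3% of the Tmsb15a UMIs, which were found in 70 cells.

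Set against the 198 granzyme-poor NK and innate lymphoid cells, fewer genes differed. 188 of 6994 were higher (2.69%) and 552 lower (7.89%), and the all-gene median log2 ratio was -0.04. With each barcode weighted equally the split was 722 higher and 723 lower. Of the 10 rule genes, which chose the cells, 5 were among the 188 and 1 among the 552.

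Of 21 granule and killing genes 0 were higher and 3 lower (median log2 -0.18), namely the cathepsin gene Ctsw (138 against 326 CPM, ratio 0.424), Lyst, which acts in granule traffic (ratio 0.431), and Tnfsf10, the death ligand TRAIL (ratio 0.199). Fasl, another death ligand, stood at 82.3 against 136 CPM and was not called. Rab27a, at 83.2 against 58.1 CPM, was not called either. The ratios of Ctsw (0.548) and Lyst (0.721) missed the 2-fold rule against granzyme-poor cells of at least 8000 UMIs.

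Receptors went in both directions. Of the activating receptors and adaptors, 1 of 23 was higher and 9 lower (median log2 -0.69). The 1 was Fcgr3, the CD16 receptor for antibodies (44.1 against 18.7 CPM, ratio 2.36, 1.54 to 3.70). Cd7 was lower (10.8 against 157 CPM, ratio 0.0688), as were Crtam, an adhesion receptor of activated lymphocytes (ratio 0.110), and Klrb1f (ratio 0.116). A single granzyme-poor barcode held 52.4% of its set's Crtam UMIs, and without it the Crtam ratio was 0.229. The Fcgr3 ratio was 1.82, under the 2-fold rule, with equally weighted barcodes. Klrk1, the activating receptor NKG2D, stood at 216 against 383 CPM (ratio 0.564) and Tnfrsf9 at 797 against 435 (ratio 1.83), neither of them called. The Tnfrsf9 ratio was 2.34 with equally weighted barcodes, 2.91 in thinned ones and 2.27 without the 61 cells that held other-cell marker UMIs, all of which meet the 2-fold rule. Of the list of inhibitory receptors, 2 of 14 were higher and 6 lower (median log2 -0.88). The activating receptors Klra4 and Klra8, also in that list, were among the 6. Ctla4 was not called, at 329 against 173 CPM (ratio 1.90), and was at 2.26 with equally weighted barcodes. Havcr2, or TIM-3, stood at 63.8 against 6.45 CPM (ratio 9.90, 5.23 to 21.1) with UMIs in 34 of 104 cells and in 3 of 198. Klrg1 stood at 247 against 99.97 CPM (ratio 2.47, 2.06 to 2.97) with UMIs in 87 of 104 cells, and its ratio was 1.81, under the 2-fold rule, against granzyme-poor cells of at least 8000 UMIs and 4.28 with equally weighted barcodes. Against those deeper granzyme-poor cells the Cd7 ratio was 0.170.

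Ly49 receptors, which recognise class I molecules and of which each NK cell expresses a subset, differed among themselves. Klra4 stood at 106 against 418 CPM (ratio 0.253, 0.217 to 0.294), Klra3 had a ratio of 0.246 and Klra8 of 0.324 (0.272 to 0.384). Klra7 stood at 344 against 350 CPM (ratio 0.983, 0.880 to 1.10), within counting error of equal levels. The Klra8 ratio was 0.540 and the Klra9 ratio, 0.416 over all, was 0.678 against granzyme-poor cells of at least 8000 UMIs, which ends both calls, while Klra4 stayed lower at 0.413. These genes are close paralogs and their counts may be incomplete or misassigned.

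Single genes of tissue-resident and of circulating NK cells were lower or not called, apart from Klrg1. Itga1, the CD49a integrin of tissue-resident NK cells, stood at 312 CPM against 389 (ratio 0.803) and Eomes, a T-box factor of NK cells, at 218 against 261 (ratio 0.837). Itga1 was found in 97 and Eomes in 79 of the 104 cells. Itga2, the CD49b integrin of circulating NK cells, stood at 7.64 against 38.1 CPM (ratio 0.201), and Cd69 at 126 against 106 (ratio 1.19). Itgae and Cxcr6 were each found in 0 of 104 granzyme-rich cells, which allows a share of cells with a UMI of up to 2.88%, and had 5 and 3 UMIs in granzyme-poor cells. That limit is 3 cells of the 104, not an exact interval, and it does not limit the share of cells that express the genes. Of the tissue-resident and ILC1 list 0 of 17 were higher and 6 lower (median log2 -0.54), and of the circulating NK list 1 of 11 (Klrg1) was higher and 5 lower (median log2 -0.65). The summed level of the circulating list was nonetheless higher, at 3990 against 2922 CPM, and per 10000 its median was 32.2 against 20.3. Thinned to 2000 UMIs, 87 of 97 granzyme-rich cells (89.7%) and 119 of 170 granzyme-poor cells (70%) held at least 3 of its UMIs. Its most abundant genes S100a6 (1719 against 1189 CPM) and Lgals1 (1249 against 642 CPM, ratio 1.95) were not called. Klf2, which maintains recirculation of lymphocytes, was at 0.116 and Zeb2 at 0.303 of the granzyme-poor level.

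Transcription factors were lower or not called. Of 27 compared, 0 were higher and 12 lower (median log2 -0.84), and 4 were lower against granzyme-poor cells of at least 8000 UMIs. Tcf7, a factor of early and memory-like lymphocytes, stood at 12.1 against 92.2 CPM (ratio 0.132), Tox at 11.7 against 56.1 (ratio 0.208) and Tbx21 (T-bet) at 47.6 against 143 (ratio 0.333, 0.261 to 0.421). The Tbx21 ratio was 0.561 with equally weighted barcodes, 0.505 in thinned barcodes and 0.546 without the 61 cells, none of which meets the 2-fold rule. The Tcf7 and Tox ratios were 0.234 and 0.381 against the deeper granzyme-poor cells. Runx3 stood at 508 against 668 CPM (ratio 0.760).

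Cytokine receptors repeated this direction with 1 exception. Il2ra, the high-affinity chain of the interleukin 2 receptor, was higher at 45.8 against 12.9 CPM (ratio 3.55, 2.19 to 6.06). The other 7 differing genes of the 18 compared were lower, among them Socs3, a feedback inhibitor of cytokine signalling (ratio 0.0387), Il21r (12.1 against 99.3 CPM, ratio 0.122) and Il18rap (ratio 0.133). Without the 61 cells the Il18rap ratio was 0.368 with an interval that includes 1.

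Of 12 secreted factors 2 were higher and 4 lower (median log2 -0.58). Spp1 stood at 4328 CPM, against 682 in granzyme-poor cells and 316 in all others. In single granzyme-rich cells it ran from 2.999 through a median of 34.3 to 394 per 10000, and in granzyme-poor cells from 0 through 0 to 140, with 95 of 198 holding a UMI. The ratio was 6.34 (5.95 to 6.76), and 4.90 against granzyme-poor cells of at least 8000 UMIs. Thinned to 2000 UMIs it was found in 93 of 97 granzyme-rich cells (95.9%), in 58 of 170 granzyme-poor cells (34.1%) and in 85 of 305 epithelial-marker barcodes (27.9%). Epithelium can express Spp1 and is no blank for it. Lgals3, the sugar-binding galectin 3, was the other higher secreted factor (270 against 120 CPM, ratio 2.25). The Lgals3 ratio was 1.79 against granzyme-poor cells of at least 8000 UMIs and 1.23 without the 61 cells, which ends the call.

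Ifng, the interferon through which uterine NK cells are known to act on decidual arteries, was lower at 7.19 against 110 CPM (ratio 0.0656, 0.0367 to 0.110), with UMIs in 5 of 104 and 30 of 198 cells. A single granzyme-poor barcode held 57.1% of its set's Ifng UMIs, and without it the Ifng ratio was 0.152 (0.0825 to 0.264). Vegfa, an angiogenic ligand, was lower at 49.0 against 295 CPM (ratio 0.166, 0.134 to 0.205), and at a ratio of 0.299 against granzyme-poor cells of at least 8000 UMIs. Pgf had 0 UMIs in granzyme-rich cells and Csf2 had 4. All 4 compared chemokines were lower (median log2 -4.37). Xcl1, which attracts cross-presenting dendritic cells, stood at 98.0 against 537 CPM (ratio 0.183), Ccl4 at 4.49 against 200 (ratio 0.0225) and Cxcl10 had a ratio of 0.104. Ccl5 had 1 UMI in granzyme-rich cells against 256 CPM (ratio 0.00176, 4.43e-05 to 0.00984). Thinned, Xcl1 was found in 8 of 97 granzyme-rich cells (8.25%) and in 78 of 170 granzyme-poor cells (45.9%).

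Some genes lower in granzyme-rich cells came from few granzyme-poor barcodes. Il1b had 0 UMIs in granzyme-rich cells against 136 CPM, at least 101-fold lower when 0 is set to 3 UMIs over the group, and Cd74, the class II invariant chain, stood at 0.899 against 270 CPM. Of the granzyme-poor UMIs, 5 barcodes held 98.1% for Cd74 and 97.6% for Il1b.

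**Figure D3:**
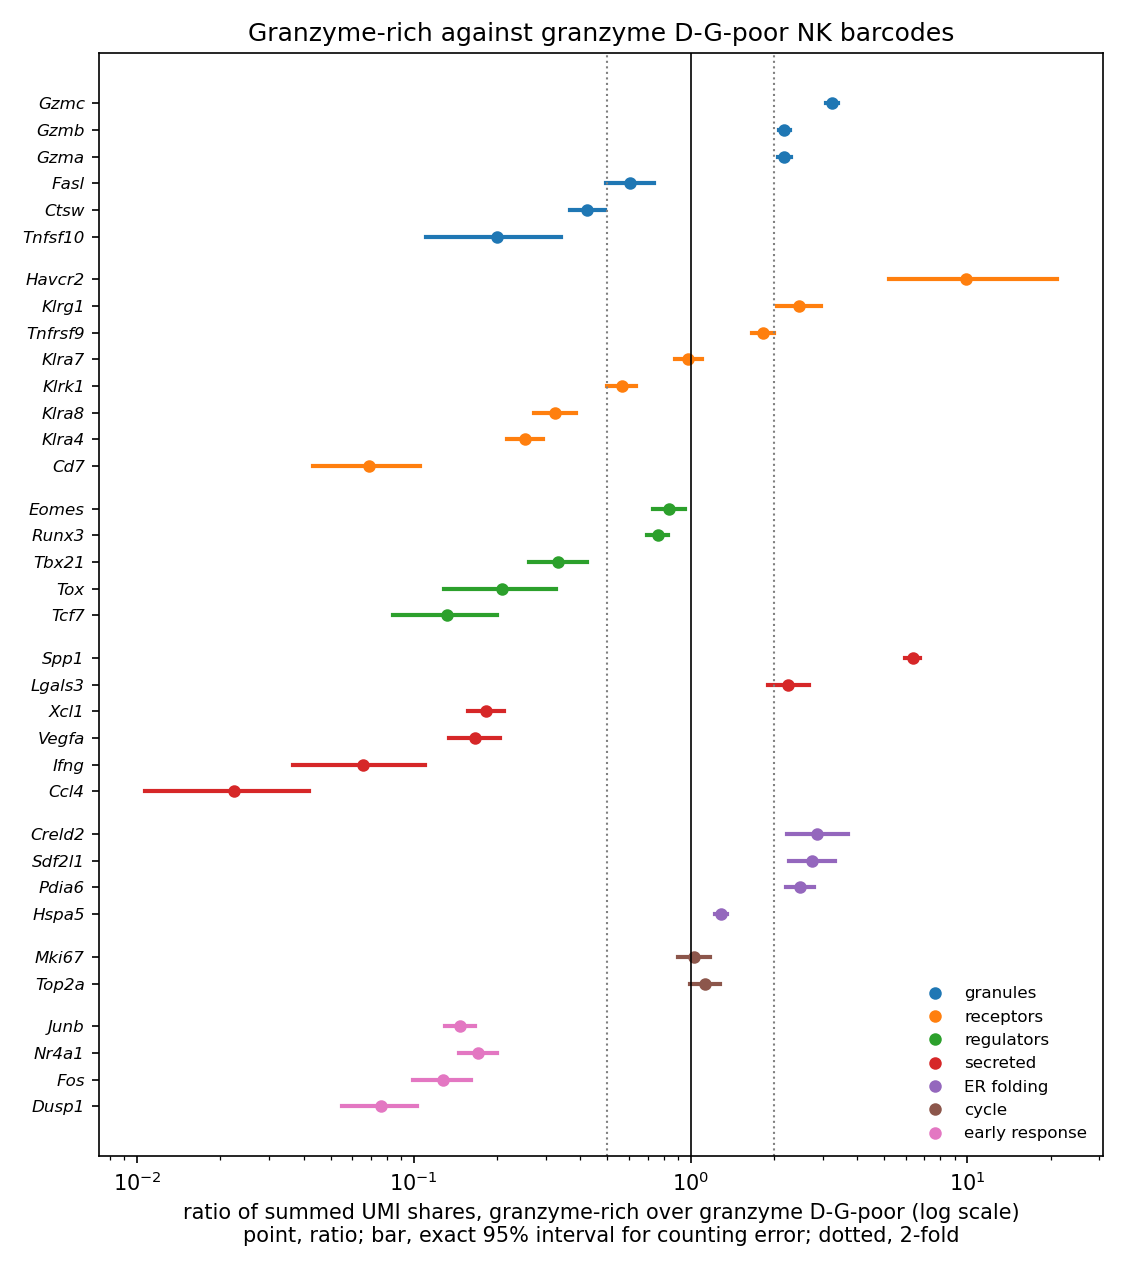
Points are ratios of summed UMI shares, granzyme-rich over granzyme-poor cells, on a log axis for 35 genes in 7 groups, bars are exact 95% counting intervals and dotted lines mark 2-fold. Spp1 (6.34) and Havcr2 (9.90) lie far right, while Ccl4 (0.0225), Ifng (0.0656), Cd7 (0.0688) and Dusp1 (0.0762) lie far left.

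Immediate early and heat shock genes, which respond within minutes to stimulation and stress, were lower as a list: 0 of 19 were higher and 13 lower (median log2 -1.35). Fos stood at 36.4 against 286 CPM (ratio 0.127), Nr4a1 at 88.6 against 519 (ratio 0.171), and Dusp1, a phosphatase that ends MAP kinase signalling, at 21.1 against 277 (ratio 0.0762). Against granzyme-poor cells of at least 8000 UMIs the ratios were 0.292 for Nr4a1 and 0.222 for Dusp1. Between 10 and 16 genes of the list were lower in each of the 13 alternative settings. Class I presentation genes included 3 lower of 14 (median log2 -0.40), with H2-Q7 at 61.6 against 283 CPM (ratio 0.217). Of the other lists, integrins and adhesion genes had 0 higher and 7 lower of 17, among them Itgax (22.9 against 172 CPM, ratio 0.134). Chemokine and lipid receptors had 0 higher and 3 lower of 9, among them Ccr7 (ratio 0.0337) and Cxcr4 (ratio 0.0802). Ccr7 is also a gene of dendritic cells, and 5 granzyme-poor barcodes held all 62 of its UMIs in that set. The dendritic marker list stood at 4.05 CPM in granzyme-rich cells (8 of 104 with a UMI, highest 2.13 per 10000, with Flt3, Clec9a, Cd209a and Xcr1 at 0) and at 819 CPM in granzyme-poor cells (21 of 198 with a UMI, highest 505 per 10000). Without the granzyme-poor barcodes that held myeloid markers the Cxcr4 ratio was 0.0804, while Ccr7 had too few UMIs to be compared. TGF-beta genes had 0 higher and 4 lower of 12, among them the inhibitor Smad7 (ratio 0.252), and interferon response genes 0 higher and 1 lower of 6.

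Protein folding genes of the endoplasmic reticulum, through which secreted and granule proteins pass, went the other way. 7 of 24 were higher and 1 lower (median log2 0.74). Creld2 stood at 146 against 51.0 CPM (ratio 2.86, 2.23 to 3.70), Sdf2l1 at 251 against 91.6 (ratio 2.74, 2.27 to 3.32) and Pdia6, a disulfide isomerase, at 601 against 242 (ratio 2.48, 2.21 to 2.79). Pdia4, Dnajb11, Pdia3 and Hsp90b1 were also higher. Ddit3, a stress-induced factor, was the 1 lower gene (ratio 0.383), and the chaperone gene Hspa5 stood at 2062 against 1600 CPM (ratio 1.29). Against granzyme-poor cells of at least 8000 UMIs 3 of 24 were higher, with Sdf2l1 at 1.98, Dnajb11 at 1.79, Pdia3 at 1.76 and Hsp90b1 at 1.89, and in thinned barcodes 13 of 23 were higher. The Hsp90b1 ratio, 2.01 over all, was 1.97 without the cell that held the most of its UMIs, and the Pdia3 ratio, 2.06 over all, was 1.999 without the 61 cells. The Ddit3 ratio was 0.681 at that depth of granzyme-poor cells and 0.537 without the 61 cells, neither of which meets the 2-fold rule. Of 20 glycolysis genes, 2 were higher (Ero1l, ratio 2.46, and Pgam1, ratio 2.13, which was 1.87 against granzyme-poor cells of at least 8000 UMIs and 1.88 without the 61 cells), and none of 22 nuclear oxidative phosphorylation genes was called.

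Among genes outside the lists with at least 200 UMIs over both sides, the highest ratio against granzyme-poor cells was that of Scin (99.3 against 7.09 CPM, ratio 14, 7.67 to 28.5), followed by Ifitm1, an interferon-induced membrane protein (310 against 39.99, ratio 7.74, 5.97 to 10.2), and the zinc-binding metallothionein Mt2 (102 against 17.4, ratio 5.83). Avil had a ratio of 4.21, Serpinb6a, a protease inhibitor, of 4.17, Mt1, another metallothionein, of 4.16 (279 against 67.1 CPM), AA467197 of 3.41, Cd55, which inhibits complement, of 3.35 and Tmsb15a of 3.16. Ifitm1 was found in 46 of the 104 cells and Mt2 in 30, and the 5 cells with the most held 61.0% and 59.7% of their UMIs. Without the 61 cells that held other-cell marker UMIs the ratios were 1.21 for Mt1 and 1.30 for Tmsb15a. Scin and Mt2 then had too few UMIs to be compared. The Mt2 ratio was 2.08 with equally weighted barcodes and 13.7 against granzyme-poor cells of at least 8000 UMIs. Fkbp5, a glucocorticoid-induced co-chaperone, was higher (120 against 53.5 CPM, ratio 2.25) and Tsc22d3, another glucocorticoid-induced gene, lower (ratio 0.370). The Fkbp5 ratio was 1.78 against granzyme-poor cells of at least 8000 UMIs and the Tsc22d3 ratio 0.559 without the 61 cells, which ends each call.

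Whether granzyme-rich cells were dividing was read from 25 genes of G2 and mitosis. Their summed level was 1922 CPM, against 1576 in granzyme-poor cells, 1982 in Cd3-positive lymphocytes and 691 in all others. Against all others 22 of 25 genes were higher (median log2 1.47), as were 18 of 24 S phase genes (median log2 1.43). Against granzyme-poor cells 0 of 23 were called (median log2 0.38), with Mki67 at 250 against 244 CPM (ratio 1.03, 0.900 to 1.17) and Top2a, which untangles DNA, at 304 against 270 (ratio 1.13). This comparison depended on the granzyme threshold and on how barcodes were weighted. With a threshold of 5 per 10000, 16 of 23 G2 and mitosis genes were higher (median log2 1.20), with Top2a at a ratio of 2.17, Cdk1 at 2.33 and Rrm2 at 2.65. With equally weighted barcodes 19 of 23 were higher (median log2 1.47). Against granzyme-poor cells of at least 8000 UMIs 0 were higher and the median was -0.16. Thinned to 2000 UMIs, 37 of 97 granzyme-rich cells (38.1%) held at least 3 mitosis UMIs, against 20 of 170 granzyme-poor cells (11.8%), 7 of 32 Cd3-positive lymphocytes (21.9%) and 101 of 1313 others (7.69%). The same count for S phase was 56 of 97 (57.7%) against 61 of 170 (35.9%). No cell was assigned to a phase.

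**Figure D4:**
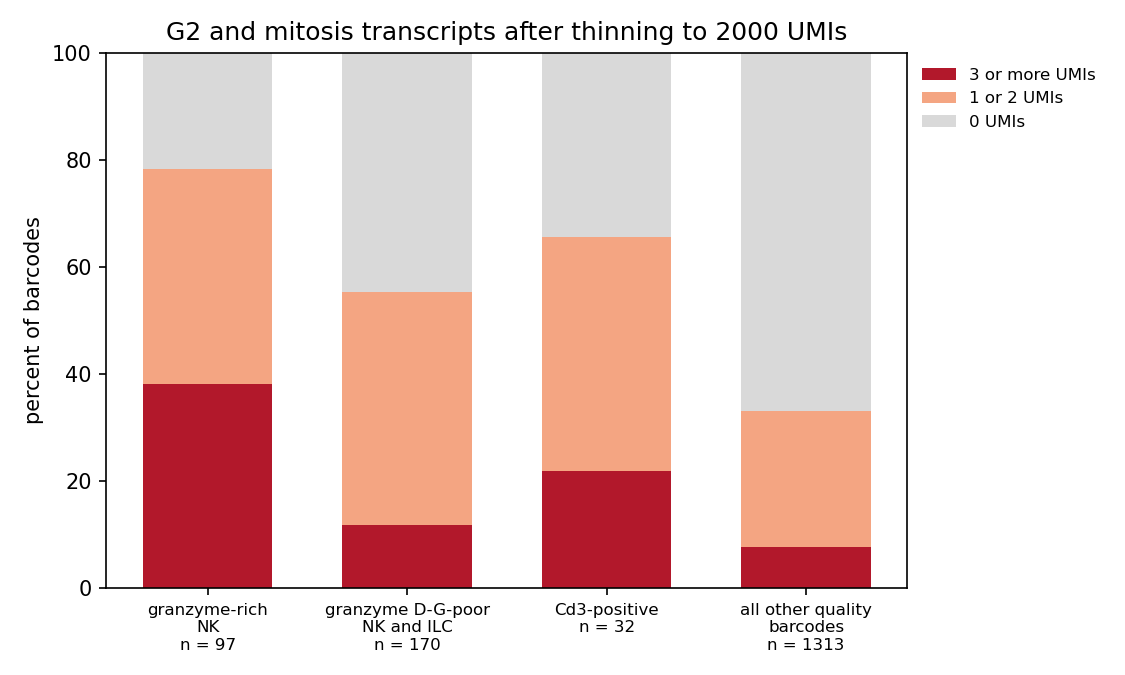
Stacked bars give the percent of barcodes with 3 or more, 1 or 2, or 0 UMIs of 25 G2 and mitosis genes after thinning to 2000 UMIs. The share with 3 or more is 38.1% in 97 granzyme-rich cells, 11.8% in 170 granzyme-poor cells, 21.9% in 32 Cd3-positive lymphocytes and 7.69% in 1313 other barcodes, which include the 2 sets before.

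The comparison with Cd3-positive lymphocytes rests on a small set. Of 5720 genes, 330 were higher in granzyme-rich cells (5.77%) and 496 lower (8.67%), around an all-gene median log2 ratio of 0.05, and 1240 were higher and 599 lower with equally weighted barcodes. 1 of the 36 barcodes held 138 Gzmd to Gzmg UMIs per 10000. Without it, an alternative added after the data were seen, 600 genes were higher and 656 lower. Over all 36, Gzmc stood at 4041 against 1002 CPM (ratio 4.03, 3.52 to 4.64), Spp1 at 4328 against 673 (ratio 6.43, 5.46 to 7.63) and Eomes at 218 against 51.0 (ratio 4.27, 2.37 to 8.61). Without that barcode the ratios were 17.8 for Gzmc, 58.8 for Spp1 and 7.10 for Eomes. Tcf7 (ratio 0.0556) and Ccl5 (ratio 0.000969, from 1 UMI) were lower than in Cd3-positive lymphocytes, as they were against granzyme-poor cells.

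Within the 104 cells, the 52 with more Gzmd to Gzmg (median 135 per 10000) were set against the 52 with less (median 29.96). Their median depths were 24194.5 and 14446.5 UMIs. Of 5403 genes, 57 were higher (1.05%) and 174 lower (3.22%), around an all-gene median log2 ratio of -0.14. Gzmd to Gzmg, which ordered the cells, were not left out. Mt2 (156 against 11.8 CPM, ratio 13.2), Scin (152 against 13.0, ratio 11.7), Mt1 (ratio 6.55) and Havcr2 (ratio 4.82) were higher in the 52 cells with more. Spp1 was also higher there (5644 against 2176 CPM, ratio 2.59, 2.46 to 2.73), while Gzmb had a ratio of 0.925. Xcl1 was lower (20.3 against 225 CPM, ratio 0.0901), as were Klra4 (ratio 0.380), Nr4a1 (ratio 0.345), Stat4 (ratio 0.392) and Cd69 (ratio 0.405). Each of these calls held without the cell with the most UMIs of the gene. Of the mitosis list 6 of 20 were lower and 0 higher, and of the immediate early list 6 of 16 were lower.

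Divided into 4 sets of 26 cells, ordered from low to high by the same level, Spp1 rose at each step, from 1629 through 2594 and 4284 to 6759 CPM, and so did Prf1 (785, 928, 1365, 1698) and Gzmc (2830, 3217, 4272, 4957). Scin went from 0 through 22.99 and 111 to 186 CPM. Gzmb showed no such order (3603, 3988, 4016, 3138), and Gzma was highest in the set ranked 3 (1569, 2531, 3494, 2646). Xcl1 was near 200 CPM in both lower sets (197, 247) and far lower in both upper ones (32.2, 10.5), and Klra4 fell at each step (221, 134, 72.3, 59.3). The summed mitosis list peaked in the set ranked 2 (2113, 3006, 1894, 1171 CPM), and the folding list was highest in the set ranked 4 (11056, 11530, 12616, 14580). The median mitochondrial share was highest in that set too (3.30, 3.57, 3.42 and 4.73%), and over the 104 cells its r with the folding list was 0.56, and its part was not tested. Median depth rose along the sets as well (14446.5, 15202, 19914.5 and 27555 UMIs), and its part in these differences was not tested.

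**Figure D5:**
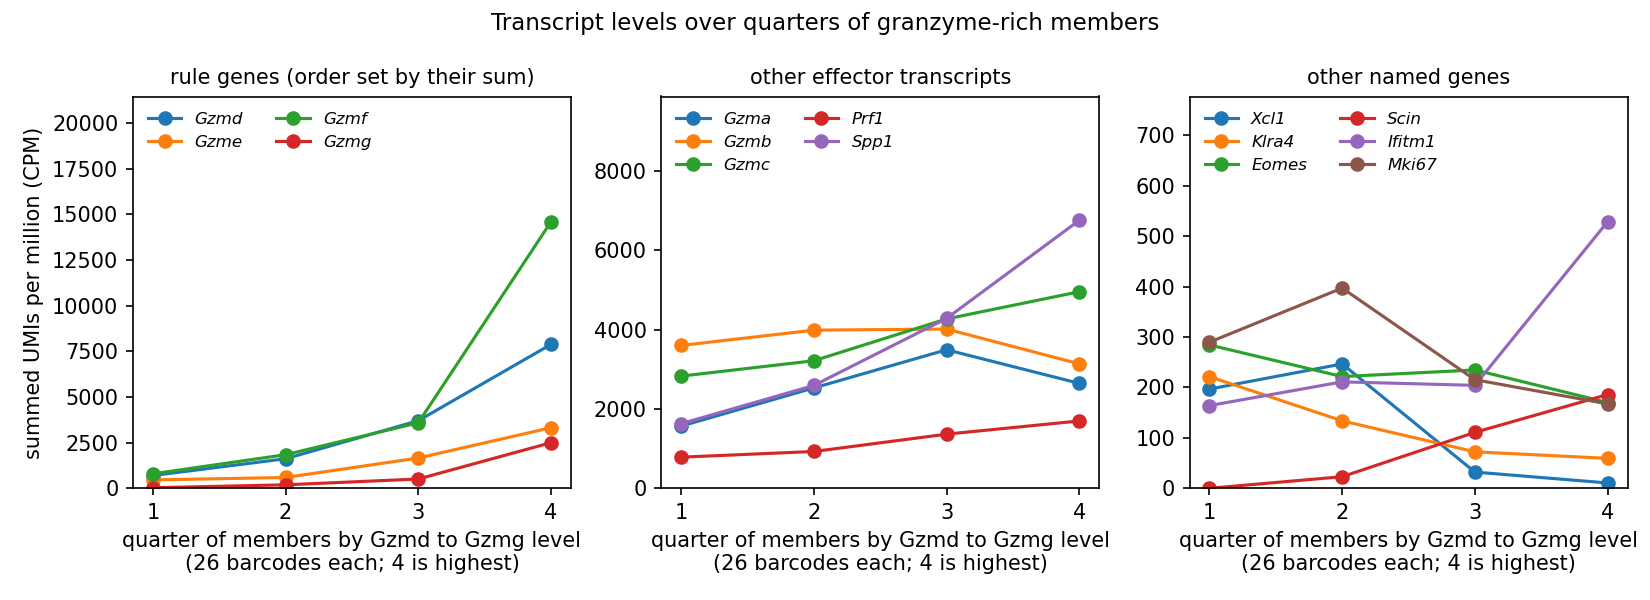
Lines join CPM over 4 sets of 26 granzyme-rich cells each, ordered by their Gzmd to Gzmg level, with the 4 rule genes on the left, other effector genes in the middle and other named genes on the right. Spp1, Gzmc, Prf1 and Scin rise at each step, Xcl1 and Klra4 are lowest in the set ranked 4 and Gzmb ends lower than it starts.

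Single-cell levels of the cluster genes were related unevenly. Over 104 cells, on log10 of the level per 10000 plus 1, Pearson's r was 0.73 between Gzmd and Gzme, 0.71 between Gzmd and Gzmg and 0.73 between Gzme and Gzmg. It was 0.25 between Gzmf and Gzmd and 0.43 between Gzmf and Gzmg. With the sum of the 4 genes, r was 0.67 for Spp1, 0.47 for Gzmc, 0.43 for Prf1, 0.09 for Gzmb and 0.05 for Gzma. The sum had r of 0.25 with log10 UMIs. These cells share 1 library and differ in depth, and the 4 rule genes share transcript sequence, so these are descriptions.

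Finally, 37 cells with at least 3 mitosis UMIs after thinning were compared with 21 that had 0. Of 3986 genes 185 were higher (4.64%) and 17 lower (0.426%), around an all-gene median log2 ratio of 0.11, and 295 were higher and 71 lower with equally weighted barcodes. The mitosis genes that chose the cells were not left out, so their part of the higher genes was set in advance. Of the S phase list 6 of 19 were higher. Gzmf stood at 3932 CPM in the cells with mitosis UMIs against 8039.5 in those without (ratio 0.489), Gzmg at 488 against 1557 (ratio 0.313), and Gzmb had a ratio of 1.11. The inducible heat shock genes Hspa1a and Hspa1b had ratios of 0.244 and 0.278. Among the cells without mitosis UMIs, 1 cell held 36.0% of the Gzmf and 53.6% of the Gzmg UMIs, and another held 58.2% of the Hspa1a and 63.5% of the Hspa1b UMIs. Without the cell concerned the ratios were 0.654 for Gzmf, 0.578 for Gzmg, 0.538 for Hspa1a and 0.702 for Hspa1b, which ends all 4 calls. The medians of depth were close, at 20379 and 18510 UMIs, and those of Gzmd to Gzmg were 43.2 and 76.9 per 10000.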

How the data were processed

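The authors deposited UMI counts for each gene and barcode of 1 of 3 single-cell samples. Per the file headers these were written by Cell Ranger 4.0.0, and the submitters' processing notes name the build mm10. Which annotation and which cell calling settings were used is not given in the sources. The matrix held 16848794 UMIs in 2775 barcodes (lowest 500, median 3225), and 40 features that shared a symbol were summed with it. Only 1 library was analysed, and no barcode occurred more than once in it.

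The granzyme-rich cells and the 39 lists with 565 genes (564 in the matrix) were chosen with earlier results of these data known. Counts were summed over barcodes and divided by the total (CPM), with exact Poisson intervals, ratios with exact conditional binomial intervals and shares with Clopper-Pearson intervals, all at 95% and for counting error only. Cells are not replicates, so no p-value is given. Named were fixed genes (rule genes, other granzymes, Spp1, Ifng, Csf2, Vegfa, Pgf, Xcl1, Ccl5, Eomes, Tbx21, integrins, Klr receptors, Mki67, Top2a), the 3 highest and 3 lowest called genes of each list, and the highest and lowest over all genes with at least 200 UMIs. Of these the most extreme are printed. Epithelial-marker barcodes held at least 10 epithelial and no NK gene UMIs. Alternatives changed the granzyme threshold, quality filters, NK minimum, doublets, other-cell markers, denominator, weighting and UMI minimum. Thinning, the 8000 UMI minimum, leaving out myeloid markers, the Cd3-positive barcode with granzymes or the barcode with the most UMIs of a gene were added after the data were seen. The comparison script was tested on simulated data. Promoters and start sites are from RefSeq on GRCm38.p6, gene coordinates from GENCODE M21. Python 3.11.15, numpy 2.4.6, scipy 1.17.1, pandas 2.3.3, scanpy 1.11.5 and matplotlib 3.10.9 were used.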

Additional observations from a re-analysis of the deposited data

Results flagged for a closer look

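The matrix also counts the added reporter sequences sfGFP-Myc and iCre, which no comparison used. Over all barcodes sfGFP-Myc had 25 UMIs in 16 barcodes (highest 5), above the 3 UMIs that a count of 0 allows, and iCre had 1. Of the sfGFP-Myc UMIs 22 were in quality-filtered barcodes and 2 in granzyme-rich cells. The labels give no genotype for this sample.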

How the results depend on the processing

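Depth limits these comparisons, since granzyme-rich cells held more UMIs per barcode than every other set, and 1 library gives no spread between animals. Leaving out granzyme-rich cells with at least 5 other-cell marker UMIs left 43 cells (2.36%). Against granzyme-poor cells, the count of higher genes (188) was 289 at a threshold of 5 per 10000, 722 with equally weighted barcodes, 63 with at least 200 UMIs and 118 against granzyme-poor cells of at least 8000 UMIs. The count of lower genes (552) was 205 with at least 200 UMIs, 244 in thinned barcodes and 190 at 8000 UMIs. Against all other barcodes the lower genes (4293) were 2414 with at least 200 UMIs and 1900 in thinned barcodes, and the median log2 ratio over all genes moved from -0.37 to -0.19 and -0.24. Against Cd3-positive lymphocytes, higher and lower genes (330 and 496) were 161 and 158 without the cells with other-cell markers, 148 and 111 with at least 200 UMIs, 131 and 90 in thinned barcodes, 1240 higher with equally weighted barcodes and 600 higher without the barcode over the granzyme threshold. The 52 cells with more Gzmd to Gzmg against the 52 with less (57 and 174) gave 135 and 280, and the mitosis comparison (185 and 17) gave 295 and 71, with equally weighted barcodes. Fewer genes and UMIs enter the thinned and 200 UMI settings, and the cause of the other differences was not tested.

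Reversals were seen against Cd3-positive lymphocytes. There the Mt1 ratio was 0.582 without the cells with other-cell markers. With equally weighted barcodes Ifitm1 was at 4.44, Tbx21 at 2.40, Itgax at 3.30 and Cdk1 at 2.85, and Ifitm1 was at 50.5 without the barcode over the granzyme threshold. The cause was not tested. Of the gene ratios recomputed against granzyme-poor cells 1199 kept their call or its absence, 17 gained and 43 lost the call. An uncalled ratio that crossed 1 counts among the 1199. Mki67 did so, at 1.03 over all and 0.676 against granzyme-poor cells of at least 8000 UMIs. No paired analysis was possible because only 1 sample was analysed.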
